A study of Mus musculus with 6 samples.

Results

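Vegfc, Vegfd, Flt4, Nrp2, Ccbe1 and Adamts3 encode the lymphatic growth factors VEGF-C and VEGF-D, their receptors and the proteins that activate VEGF-C. They were chosen by gene symbol, and all 6 were found among the 17714 genes of the deposited mouse table. RNA sequencing had been done on 6 libraries of wild-type mouse heart material at day 3, 3 after a sham operation and 3 after myocardial infarction (MI), an interruption of the heart's blood supply. The labels call the cells lymphatic endothelial cells kept in serum-containing medium, whereas the protocol text speaks of heart tissue or primary endothelial cells of the heart, and no sorting step, strain or animal age was given. Whether each library came from its own animal was not stated, so a p-value here weighs the spread among libraries, which may be technical.

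VEGF-C and VEGF-D are secreted as precursors that become strong ligands of VEGFR-3, the receptor tyrosine kinase encoded by Flt4, once proteases remove their end pieces. CCBE1 is an extracellular matrix protein that brings the protease ADAMTS3 together with pro-VEGF-C, and neuropilin-2, encoded by Nrp2, is a co-receptor on lymphatic vessels and veins. In the heart, VEGF-C signalling is known for growth of lymphatic vessels, which drain fluid and immune cells from the muscle.

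Library depth and cell makeup differed with the operation. The sham libraries held 3206732 to 3591473 estimated counts and the MI libraries 21154342 to 21689333, 6.29 times as many on average, so depth and operation cannot be told apart. All 8 lymphatic endothelial markers examined were present in both groups, with a summed level of 447 to 462 CPM (counts-per-million, scaled to the effective library size) in sham and 245 to 258 CPM in MI. The master regulator Prox1 stood at 7.12 ± 0.539 and 1.26 ± 0.455 CPM (SD, n = 3), and Pdpn, which other cells also make, made up most of the MI sum at 202 ± 7.01 CPM. The 12 pan-endothelial markers summed to 9045 to 9203 CPM in sham and 2062 to 2172 in MI, and the 10 macrophage markers to 4279 to 4504 and 19306 to 22050. The 10 fibroblast markers summed to 1773 to 1812 and 4010 to 4158 CPM, of which 4 rose and 6 fell, the 8 mural cell markers to 3092 to 3122 and 813 to 829, and the 8 neutrophil markers to 34.7 to 43.0 and 643 to 802. The 8 cardiomyocyte markers summed to 2822 to 2867 CPM in sham and 134 to 159 in MI. No marker of these lists was at 0 in all 3 libraries of a group. The part of these shifts in the members' results was not tested, beyond their levels relative to marker lists.

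Between sham and MI, the transcripts of the ligand Vegfc and of its receptor Flt4 fell, the rare ligand transcript Vegfd rose from very few counts, and Nrp2 rose slightly, a rise that turned to a lower value with total-count scaling. Ccbe1 and Adamts3 were nearly undetected. Of the 6 genes, 4 passed the filter on low counts, Vegfd only through its MI libraries. Vegfc, Flt4 and Nrp2 passed it in both groups, had an adjusted p below 0.05 by the quasi-likelihood test of edgeR, and did not overlap between groups; Vegfd was called as well. Of all 13370 genes tested, 73.3% were called and 76.1% did not overlap, so these calls are no result about the members as a set. Lower values in MI were called for 36.9% of genes, as for Vegfc and Flt4, and higher values for 36.4%, as for Vegfd and Nrp2. With total-count scaling these shares were 49.6% and 26.5%. In such bulk libraries, fewer cells of a type and less RNA per cell cannot be told apart.

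**Figure D1:**
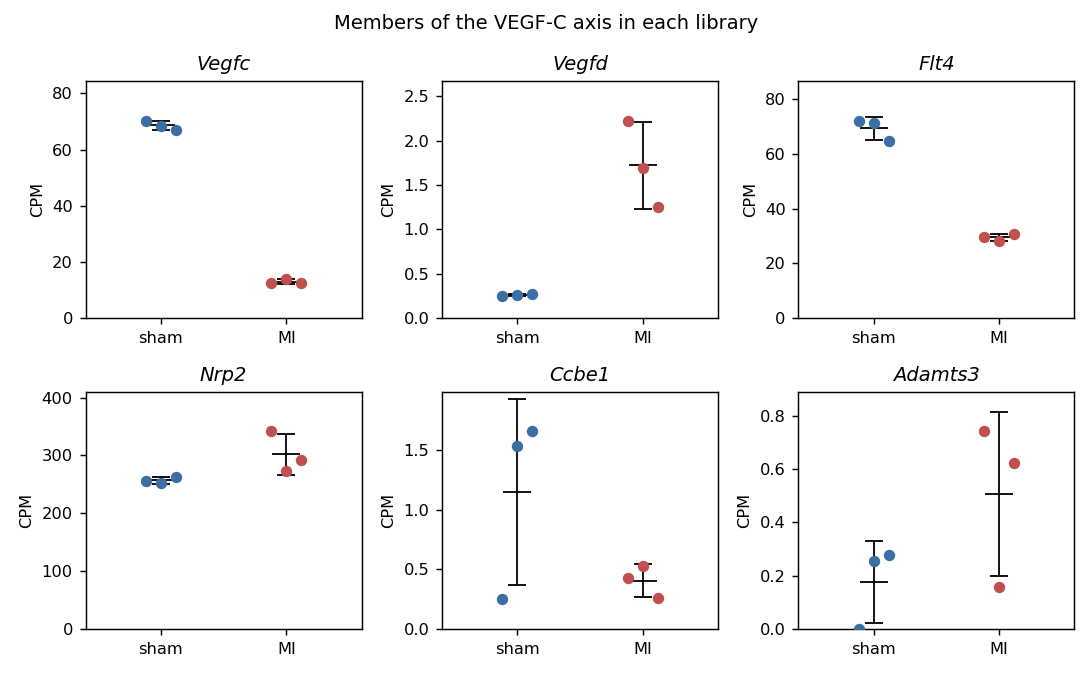
Level of each of the 6 genes in CPM (y axis) in the 3 sham and 3 MI libraries. Points are libraries, the horizontal mark is the mean and the bar the SD; each panel has its own axis from 0. Vegfc and Flt4 were lower in all 3 MI libraries, Vegfd was higher, and the groups overlapped for Ccbe1 and Adamts3.

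Among the ligands, Vegfc was at 70.3, 68.5 and 67.0 CPM in sham libraries 1 to 3 and at 12.43, 14.01 and 12.38 CPM in the MI libraries. All 3 sham libraries were therefore about alike and far above all 3 MI libraries. Vegfc fell 5.30-fold (log2 fold change -2.41 ± 0.11, SE, adjusted p = 1.45e-09 in edgeR's quasi-likelihood test). Only 4.46% of tested genes had a lower log2 fold change. In TPM (a level per transcript length, scaled by the authors to the same total in each library), Vegfc went from 70.7 ± 1.89 to 11.9 ± 0.526 (SD, n = 3). It stood above 89.1% of listed genes in sham and above 60.2% in MI. The gene (Entrez 22341) is protein coding and spans 54077532 to 54186454 of chromosome 8 (GRCm38.p6). The gene Gm33153 overlaps its start in the RefSeq annotation. It had 15.02 to 28.3 counts in sham and 18.5 to 26.2 in MI, against 243 to 284 and 234 to 265 for Vegfc. Reads of overlapping genes cannot be told apart without strand, a setting not given in the sources used here.

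Vegfd, the other lymphatic ligand gene, had 1 count in each sham library and 42, 32 and 24.1 counts in MI libraries 1 to 3. These counts corresponded to 0.247, 0.257 and 0.276 CPM in sham and 2.23, 1.69 and 1.25 CPM in MI. Every MI library lay above every sham library, where a single count was seen each time. Vegfd passed the filter on low counts only through the MI libraries, where it was high, so its call supports nothing beyond its own values. Vegfd rose with a log2 fold change of 2.68 ± 0.61 (SE, adjusted p = 0.00171 in edgeR's quasi-likelihood test). The ratio of summed counts, 98 in MI over 3 in sham per effective library size, was 6.62, with an exact (Clopper-Pearson) 95% interval of 2.20 to 32.7 for counting error only. After thinning of MI reads to the sham depth, or without any 1 of the 3 MI libraries, Vegfd had too few counts to be tested. Vegfd (Entrez 14205) lies on chromosome X from 164373522 to 164402650.

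In TPM the ligands were far apart in sham, with 246 ± 61.3 Vegfc transcripts per Vegfd transcript, and closer in MI, with 7.95 ± 2.22 (SD, n = 3). The sham ratio rests on 1 Vegfd count in each library, so its size is uncertain and its SD leaves out the counting error. Vegfd reached 0.300 ± 0.0781 TPM in sham and 1.597 ± 0.525 TPM in MI, so Vegfc remained the more abundant of the pair in every library.

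The sequences before the starts of both ligand genes are shown because these paralogs moved in opposite directions. They come from RefSeq on GRCm38.p6, plus strand, 5′ to 3′, for Vegfc at chr8:54077282-54077531 and for Vegfd at chrX:164373272-164373377. The Vegfd stretch was stopped at 106 bases because the GENCODE annotation starts the gene there, upstream of the RefSeq start. Capitals mark the only match to a searched motif in these stretches, an ETS motif read on the minus strand.
Vegfc: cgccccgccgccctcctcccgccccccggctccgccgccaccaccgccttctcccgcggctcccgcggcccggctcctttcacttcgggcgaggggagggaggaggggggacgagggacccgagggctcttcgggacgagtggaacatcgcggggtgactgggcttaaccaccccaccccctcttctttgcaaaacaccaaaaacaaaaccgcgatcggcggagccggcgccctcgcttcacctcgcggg
Vegfd: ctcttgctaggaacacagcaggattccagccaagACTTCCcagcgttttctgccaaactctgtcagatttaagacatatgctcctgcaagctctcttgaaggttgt
The 250 bases before the RefSeq start of Vegfc were 71.6% G or C, and those before that of Vegfd 42.4%, against a median of 52.4% over 32851 mouse promoters. The unprinted part of the Vegfd window lies inside the gene in the GENCODE annotation, so the window may not all be promoter. The whole printed Vegfc stretch lies inside the gene Gm33153 in the RefSeq annotation, so it may not all be promoter either. The printed Vegfd stretch alone was 47.2% G or C. Both strands were searched for the ETS factor motif, spelled GGAAGT, and the SOX motif, spelled AACAAT. The GATA motif was spelled AGATAA and the FOX motif GTAAACA. The AP-1 motif was TGANTCA and the hypoxia response motif ACGTG, and the NF-kB motif was also searched. Vegfd held 1 ETS match, present in 19.7% of all promoters of this length, and 1 GATA match outside the printed stretch, present in 9.99%, and these matches did not overlap. Adamts3 held 1 hypoxia response match (16.6% of promoters), and the windows of Vegfc, Flt4 and Nrp2 held none of these letters.

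Of the processing partners, Ccbe1 had 1, 5.98 and 6 counts in sham libraries 1 to 3 and 8, 10 and 5 counts in the deeper MI libraries. That was 0.247, 1.54 and 1.66 CPM in sham and 0.424, 0.530 and 0.260 CPM in MI, and sham 1 lay below all 3 MI libraries. The gene did not pass the filter on low counts. The ratio of summed counts, MI over sham, was 0.359, with an exact 95% interval of 0.174 to 0.771 for counting error only. Tested with no filter, it did not pass (log2 fold change -1.41 ± 0.66, adjusted p = 0.0862 in edgeR, over alternatives 0.0125 to 0.129). The lowest of these came from the fit without sham 1, in which Ccbe1 was called lower (log2 fold change -1.95 ± 0.56, SE). In that fit Ccbe1 passed the filter on low counts only through sham 2 and 3, where it was high. That call therefore supports nothing beyond the gene's own values. Ccbe1 (Entrez 320924) lies on chromosome 18 from 66056855 to 66291838.

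Adamts3, which encodes the protease itself, had 0, 1 and 1 counts in sham and 14, 3 and 12 in MI. In CPM these were 0, 0.257 and 0.276 in sham and 0.743, 0.159 and 0.623 in MI, so MI 2 lay below a pair of sham libraries. The ratio of summed counts, 29 in MI over 2 in sham, was 2.94 with an exact 95% interval of 0.744 to 25.4. No direction was therefore detectable at this depth, and with no filter edgeR gave an adjusted p of 0.247 (0.247 to 0.511 over the fits that tested it). Adamts3 (Entrez 330119) lies on chromosome 5 from 89673841 to 89883668.

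Other genes around ligand processing were abundant and went both ways, with 5 higher, 5 lower and 1 not called of 11 tested (median log2 fold change 0.07, against -0.01 over all genes). Ctsd, which encodes the lysosomal protease cathepsin D and is also made in quantity by macrophages, rose 20.7-fold, from 528 ± 20.1 to 10911 ± 1310 CPM. Furin, the proprotein convertase that makes the first cut in pro-VEGF-C, rose 7.37-fold, from 71.6 ± 0.497 to 528 ± 27.6 CPM. Plau, which encodes the plasminogen activator urokinase, rose 6.76-fold. The convertase gene Pcsk5, named after its value was seen, fell from 23.4 ± 2.11 to 6.88 ± 0.794 CPM. Of the close relatives of Adamts3, Adamts2 was at 22.1 ± 0.512 CPM in sham and 29.2 ± 1.47 in MI, a rise not called with total-count scaling, and Adamts14 at 2.22 ± 0.734 and 2.36 ± 0.214 did not pass; both were named after their values were seen. Per length, Adamts2 at 5.78 ± 0.159 TPM in sham and 6.84 ± 0.136 in MI was the highest of these 3 protease genes in both groups. These genes moved in libraries whose macrophage markers summed to several times more CPM in MI, and the part of that in the result was not tested.

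Flt4, the receptor gene, was at 72.1, 71.3 and 64.6 CPM in sham libraries 1 to 3 and at 29.5, 28.2 and 30.9 CPM in MI. The groups were far apart, with the lowest sham library at more than the highest MI library. Flt4 fell 2.35-fold (log2 fold change -1.23 ± 0.10, SE, adjusted p = 2.99e-07 in edgeR's quasi-likelihood test), and 17.0% of tested genes had a lower log2 fold change. Its level per length went from 22.6 ± 1.44 to 8.64 ± 0.754 TPM (SD, n = 3). The gene (Entrez 14257) is protein coding and lies on chromosome 11 from 49609679 to 49652739.

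Nrp2, the co-receptor gene, was at 256, 252 and 263 CPM in sham and at 342, 273 and 292 CPM in MI. The groups did not overlap, but MI 1 was the highest and the lowest MI library was close to the highest sham library. Nrp2 rose 1.18-fold under the main fit (log2 fold change 0.23 ± 0.09, SE, adjusted p = 0.0377 in edgeR's quasi-likelihood test, 0.00706 to 0.344 over the alternatives). The call was lost without sham 1, sham 2, sham 3 or MI 3 (adjusted p = 0.0936, 0.114, 0.0731 and 0.0635) and with the replicate number as a block (0.0560). With total-count scaling the sign turned (log2 fold change -0.11, adjusted p = 0.286), in a scaling that moved the median of all genes by 0.35. In TPM it was 75.4 ± 1.48 in sham and 83.9 ± 16.3 in MI, with overlapping libraries (70.1 in MI 2). Nrp2 (Entrez 18187) lies on chromosome 1 from 62703317 to 62818692.

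**Figure D2:**
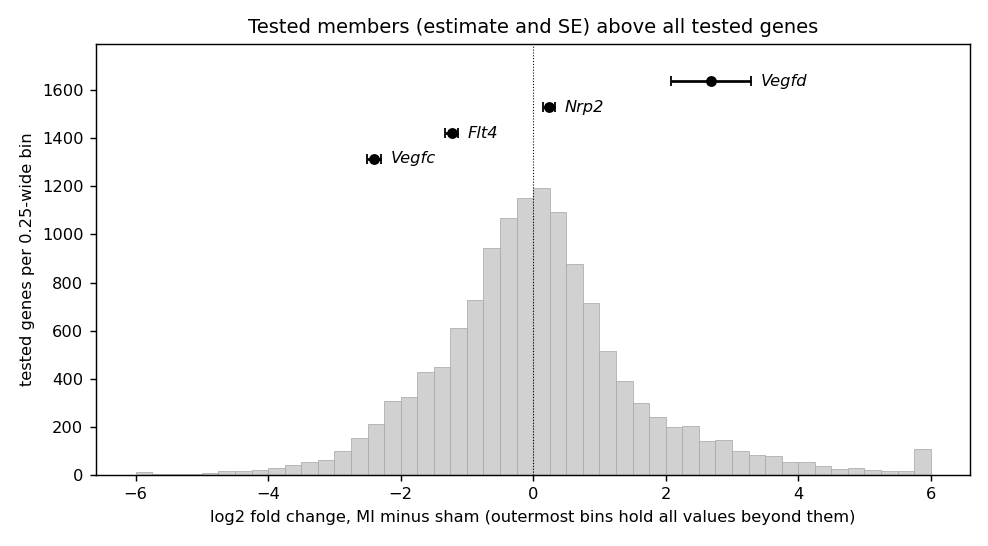
Log2 fold changes (MI minus sham, x axis) of the 4 tested members, as points with their SE, drawn above a histogram of all 13370 tested genes (y axis, genes per bin); the outermost bins hold all values beyond them and the height of the points has no meaning. Vegfc at -2.41 and Flt4 at -1.23 sat in the lower part of the distribution, Nrp2 at 0.23 (-0.11 with total-count scaling) near its middle and Vegfd at 2.68 in the upper part with a wide SE.

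The order of levels per length changed little at the top and more at the bottom. In sham, TPM ran from Nrp2 (74.4 to 77.1) through Vegfc (68.7 to 72.5) to Flt4 (21.0 to 23.5), without overlap between neighbours. Ccbe1 (0.090 to 0.580), Vegfd (0.25 to 0.39) and Adamts3 (0 to 0.160) followed, and the first pair of these overlapped. In MI the order was Nrp2 (70.1 to 102), Vegfc (11.3 to 12.2), Flt4 (7.78 to 9.20) and Vegfd (1.12 to 2.16), again without overlap. Ccbe1 (0.080 to 0.160) and Adamts3 (0.030 to 0.180) came last and overlapped.

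Within the wider VEGF family, the 6 other ligand and receptor genes tested were all called, 2 higher and 4 lower (median log2 fold change -0.99). Over all genes tested 73.3% were called, 36.4% higher and 36.9% lower. Counts over 6 genes are too few to be told apart from these shares, and the difference was not tested. The vessel growth factor gene Vegfa rose 3.30-fold and Pgf, which encodes placental growth factor, 1.36-fold, a rise not called with total-count scaling (log2 fold change 0.09). Vegfb fell 1.51-fold. The blood-vessel receptor genes Kdr and Flt1 fell 4.28-fold and 3.996-fold, and Nrp1, the other neuropilin gene, fell 2.62-fold. Kdr is also one of the pan-endothelial markers.

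The makeup of the family also differed, in measures chosen after the data were seen. Vegfc made up 49.0, 51.4 and 46.6% of the summed TPM of the 5 VEGF ligand genes in the sham libraries and 10.6, 11.3 and 10.2% in the MI libraries. Vegfc was thus the most abundant of these ligand transcripts in sham (70.7 TPM against 36.8 for Vegfb and 19.4 for Vegfa), whereas in MI Vegfa was (55.7 TPM). Flt4 made up 3.42 ± 0.133% of the TPM of the 3 VEGF receptor genes in sham and 5.91 ± 0.461% in MI, while their sum went from 661.7 ± 18.4 to 147 ± 21.3 TPM. Nrp2 made up 18.4 ± 0.179% of neuropilin TPM in sham and 42.3 ± 0.570% in MI (SD, n = 3 throughout). In all 3 shares the groups did not overlap, and an exact two-sided permutation test gave p = 0.1, the smallest that 3 against 3 libraries allow.

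**Figure D3:**
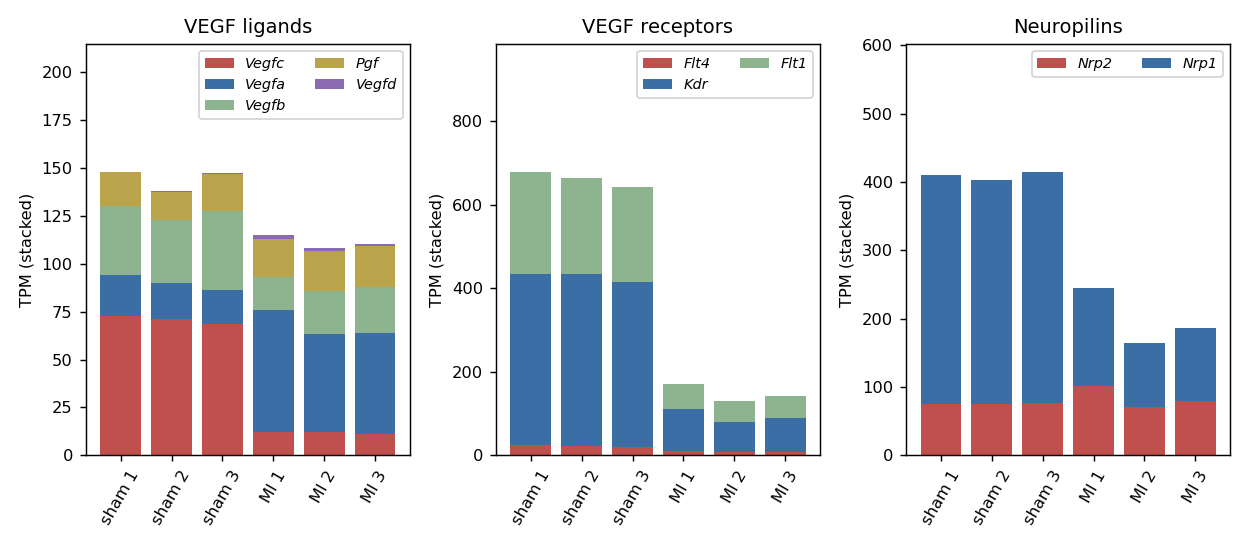
Stacked TPM (level per transcript length, y axis) of the VEGF ligand, VEGF receptor and neuropilin genes in each library (x axis), with the members of interest at the base in red. The Vegfc segment shrank from about 49.0% to 10.7% of the ligand bar, and the Nrp2 segment stayed between 70.1 and 102 TPM while the Nrp1 segment above it shrank.

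Levels were next set against markers of cells that could carry each transcript, as differences in log2(CPM + 0.5) within a library, for which 12 measures were tested. Vegfc relative to the mean of the pan-endothelial list was -3.19, -3.20 and -3.25 in sham and -3.36, -3.31 and -3.47 in MI. The difference between groups was thus small, at -0.17, although the groups did not overlap, and it was -0.06 with 2 CPM added in place of 0.5. Flt4 relative to the same list was -3.20 ± 0.09 in sham and -2.22 ± 0.10 in MI, higher by 0.98, and relative to the lymphatic list it was higher by 0.43 (1.81 ± 0.20 in sham, 2.24 ± 0.09 in MI, SD, n = 3). Of the 8 lymphatic markers 7 fell and 1, Pdpn, rose (log2 fold change 5.35; median of the list -2.80). Without Pdpn, a change made after its values were seen and therefore given with no test, Flt4 stood at 1.54 ± 0.18 in sham and 2.96 ± 0.09 in MI, higher by 1.41. With all 8 markers the difference was 0.11 with 2 CPM added, 0.71 with 0.1 CPM added and 0.18 on log2(TPM + 0.5). The fall of Vegfc was therefore close in size to that of the pan-endothelial markers (median log2 fold change -2.08), and the fall of Flt4 was smaller.

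Nrp2 relative to the pan-endothelial list was higher in MI by 2.42, going from -1.31 ± 0.03 to 1.11 ± 0.23. Relative to the macrophage list it was lower by 2.28, going from 0.09 ± 0.08 to -2.19 ± 0.22. Nrp2 thus kept step with neither marker set, and the cells that carried them are not resolved in bulk libraries. Nrp2 relative to Flt4 was higher by 1.44, and in TPM there were 3.35 ± 0.288 Nrp2 transcripts per Flt4 transcript in sham and 9.67 ± 1.23 in MI (SD, n = 3).

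Vegfc relative to its receptor gene Flt4 was -0.01 ± 0.06 in sham and -1.16 ± 0.16 in MI, lower by 1.15. In TPM this was 3.13 ± 0.129 Vegfc transcripts per Flt4 transcript in sham and 1.39 ± 0.159 in MI. Relative to the fibroblast list, Vegfc was lower by 2.04 and Vegfd higher by 1.85. The Vegfd value rests on 1 count in each sham library and on the added 0.5 CPM. It was 2.66 with 0.1 CPM added and 0.98 with 2 CPM added. The fibroblast list held matrix genes that rose and resting fibroblast genes that fell, among them Fn1 (log2 fold change 2.92) and Dcn (-2.50), both named after their values were seen. Ccbe1 relative to the fibroblast list differed by -0.40, within the sham SD of 0.89 (exact two-sided permutation p = 0.5). Adamts3 relative to that list was higher by 0.88 and Ccbe1 relative to Vegfc by 1.64, both resting on very few counts and on the added 0.5 CPM. In all 11 measures other than the one for Ccbe1 and fibroblasts the groups did not overlap. Each of these had an exact two-sided permutation p of 0.1, the smallest possible, or 0.109 after Benjamini-Hochberg adjustment over the 12.

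**Figure D4:**
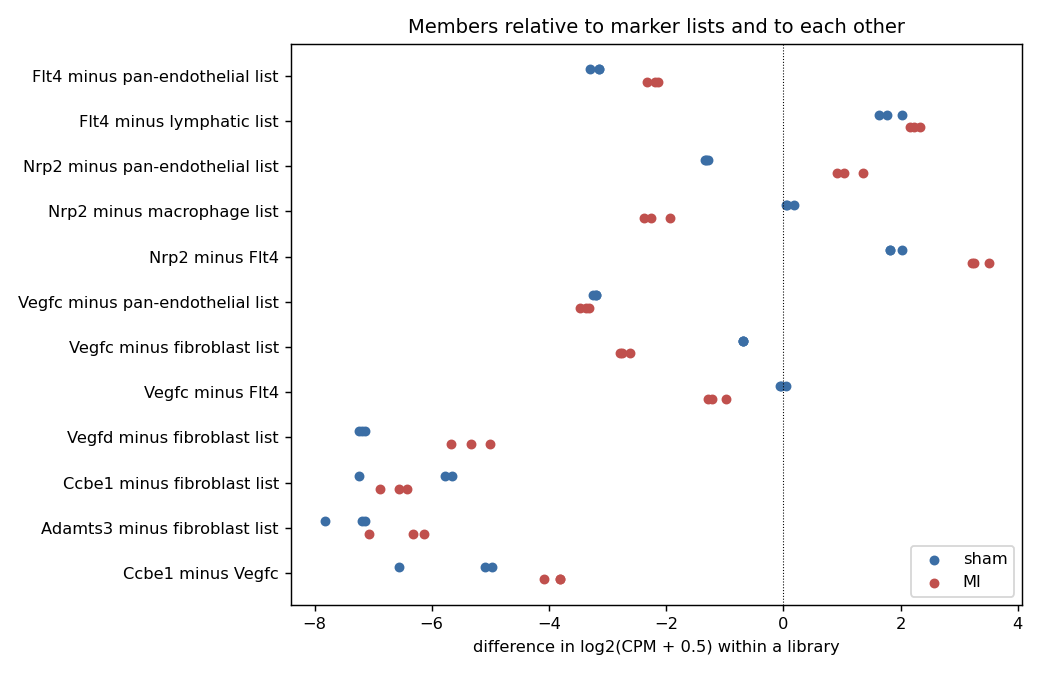
Difference in log2(CPM + 0.5) between a member and a marker list or another member (x axis) for the 12 measures (rows), with 1 point per library, sham in blue and MI in red. The sham and MI points for Vegfc against the pan-endothelial list lay close together, while those for Nrp2 against the pan-endothelial and macrophage lists lay more than 2 log2 units apart in opposite directions.

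The counts of the pathway lists that follow stand beside 36.9% lower and 36.4% higher over all genes tested, or 49.6% and 26.5% with total-count scaling, and a median log2 fold change of -0.01. Of 12 receptor partners and trafficking genes tested, 7 fell, 4 rose and 1 was not called (median log2 fold change -0.98), with 3 instead of 4 rising under total-count scaling. The junction gene Cdh5, also a pan-endothelial marker, fell 3.76-fold, Epn2, an endocytic adaptor gene, 4.89-fold, Ephb4, a receptor gene of veins and lymphatics, 3.55-fold, and its ligand gene Efnb2 4.02-fold. Itga9, which encodes an integrin of lymphatic valves, was at 57.2 ± 5.004 CPM in sham and 81.1 ± 1.83 in MI, and was the rise not called under that scaling; it was named after its value was seen.

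Semaphorins and plexins, the other partners of neuropilin-2, showed 2 rises and 6 falls among 8 tested (median -0.89), with 1 rise under total-count scaling. The plexin gene Plxna1 rose 5.70-fold, and its relative Plxna2 fell 2.61-fold. Sema3g, which encodes an endothelial semaphorin, fell 3.78-fold and Sema3c 5.80-fold.

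Of 12 transcription factor genes of lymphatic development, 10 fell and 2 rose (median -1.77). Gata2, Sox18 and Yap1 fell 3.47-fold, 4.34-fold and 3.35-fold. Sox18 encodes an inducer of Prox1. The rise in Nfatc1, named after its value was seen, was not called with total-count scaling. Prox1 relative to Flt4 was not among the tested measures, but its log2 fold change of -2.48 ± 0.29 lay below that of Flt4; Prox1 was named after its value was seen.

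Genes for signalling below the receptor were mixed, with 9 higher, 7 lower and 4 not called of 20 tested (median 0.18), or 7 higher and 9 lower with total-count scaling. The adaptor genes Grb2 and Gab1 rose 3.602-fold and 2.10-fold. Rasip1, an endothelial regulator of small GTPases, fell 3.02-fold. The products of most of these genes serve many receptors and cell types.

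Across the 6 libraries, the genes whose log2(CPM + 0.5) followed Vegfc most closely were Tmem255b (Pearson's r = 0.9999) and Cbx7 (0.9999). For Flt4 they were Pam (0.9996) and Apol10b (0.9995), and for Vegfd Evi2 (0.997) and Aebp2 (0.996). These values mainly restate the difference between the groups, since 2499, 2439 and 2086 of about 11138 genes reached an r of 0.95 with Vegfc, Flt4 and Vegfd. Nrp2 was closest to Birc6 (0.998) and Phf3 (0.997), and 164 genes reached 0.95 with it.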

How the data were processed

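The members, gene lists, motifs and tests were chosen with earlier results of these data known. Reads from a BGISEQ-500 were mapped to GRCm38 per the series design text (GRCm38.p6 in the submitters' processing notes, which also name Agilent Feature Extraction 9.1 without a role). The aligner, counting program, annotation, strand setting and filters: not given in the sources used here. In 1 table the authors deposited estimated counts per gene, TPM, FPKM and a scaled read count (signal); the last 2 were not used. Estimated counts were rounded, filtered with filterByExpr (13370 genes kept), TMM-scaled and tested with edgeR 4.0.16 in R 4.3.3 (quasi-likelihood, group only, threshold 0.05 on p adjusted by Benjamini-Hochberg across the genes kept). SEs were obtained as the absolute log2 fold change over the root of the F statistic. CPM used TMM-adjusted library sizes. Positions came from a RefSeq table of GRCm38.p6 that matched 17576 of 17714 genes, promoters from a RefSeq table holding 5 of the 6 members. Named genes were the members, the VEGF family, the 4 smallest p of each other list and the 2 closest correlates of each tested member with a mean of at least 5 CPM in 1 group. Some genes that this rule names are not reported here. Alternatives used DESeq2 1.42.0 and limma 3.58.1. Tested on simulated data for sham against MI (13370 genes, 200 changed), edgeR recovered 89% of 2-fold and 54% of 1.5-fold changes, with 8 unchanged genes among 151 calls. The simulation gave all genes a common dispersion (extra spread among libraries), averaged means over both groups and used no filter. It also changed far fewer genes than were called in the data, so its rates may not hold for them. Exact intervals cover counting error only.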

Additional observations from a re-analysis of the deposited data

How the results depend on the processing

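Vegfc and Flt4 kept their direction and their call in every alternative (15 and 15), with log2 fold changes of -2.76 to -2.35 and -1.58 to -1.18. Vegfd was higher and called in the 11 alternatives that tested it (0.98 to 2.78). Where low counts were filtered, it passed only through its high MI libraries, so these calls add no support. Vegfd was not testable without any 1 MI library or with MI thinned to the sham depth. Nrp2 did not pass with a stricter filter (0.19), limma-voom (0.23), limma on log2(TPM + 1) (0.13) or thinning (0.19), with sham 1, sham 2, sham 3 or MI 3 left out, or with the replicate number as a block (0.23), and turned to -0.11 with total-count scaling; leaving out 1 library gave 0.16 to 0.30. The cause was not tested. Members called numbered 2 to 4 with 1 library left out and 2 (Vegfc and Flt4) with MI thinned. The 4 came without sham 1 and included Ccbe1, which passed the filter there only through sham 2 and 3, where it was high. Same-numbered libraries did not deviate together (r = -0.07, -0.04 and 0.00). These values cannot exclude a pairing, since counting noise in the shallow sham libraries also lowers r. The replicate block changed no member's call other than that of Nrp2 and gave 9635 calls over all genes against 9801. It leaves each relative measure's value as it was by construction. The 12 relative measures kept their direction in all alternatives, but the exact permutation p did not always stay at 0.1 with all 6 libraries. For Flt4 against the lymphatic list it was 0.4 with 2 CPM added and 0.3 on log2(TPM + 0.5). For Vegfc against the pan-endothelial list it was 0.2 with 2 CPM added, and for Adamts3 against the fibroblast list 0.3 with 0.1 CPM added. Ccbe1 against the fibroblast list differed by only -0.0015 on log2(TPM + 0.5). Adamts3 stood at -0.04 (log2 ratio of counts per total) with MI thinned. Without thinning it was 1.17 with total-count scaling and 1.56 with TMM-adjusted library sizes. The shallow sham libraries limit what can be said of Vegfd, Ccbe1 and Adamts3, where 3 counts over that group equal 0.260 CPM.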
